A study of Mus musculus with 12 samples.

Results

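The expression of 10 mouse genes of bone morphogenetic protein (BMP) signalling was followed in intestinal crypts and in the monolayers grown from them. The genes were taken by symbol from the 55487 genes of the count tables, and comprised 3 ligands (Bmp2, Bmp4 and Bmp8b), 2 receptors (Bmpr1a and Bmpr2), 2 inhibitory SMADs (Smad6 and Smad7) and 3 targets (Id1, Id2 and Id3). All 10 passed the filter on low counts. RNA from C57BL/6 mice, aged 6 to 10 weeks and of either sex, had been sequenced in 4 groups of 3 libraries. SI tissue and LI tissue were crypts freshly isolated from the small and the large intestine, with 3 mice per group. For its cultures the study took jejunum and large intestine from the same mice. Whether SI and LI libraries share mice is not stated, and the tests treated them as independent. SI monolayers and LI monolayers were crypt cells grown for 24 h on Matrigel, a basement membrane extract, with several wells pooled into each of the 3 samples of a group. For SI the crypts came from the jejunum and were released with ice-cold EDTA. For LI the tissue was first digested with collagenase D, dispase and DNAse in medium with Y-27632. Region and isolation method thus cannot be told apart. No allele, transgene or tested drug entered these groups. Both kinds of monolayer were seeded with LDN-193189, an inhibitor of BMP type I receptors, together with CHIR-99021, EGF, R-spondin-1, Wnt3a and Y-27632, and were then fed medium with Wnt3a, EGF, R-spondin-1 and murine Noggin, a secreted BMP antagonist. Tissue was not cultured, so the BMP inhibitors cannot be told apart from the rest of the culture.

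BMP ligands bind pairs of type I and type II receptors on the cell surface, which phosphorylate SMAD1, SMAD5 and SMAD9, and these enter the nucleus with SMAD4. Among the genes that they switch on in many cell types are Id1, Id2 and Id3, which encode inhibitors of DNA binding by basic helix-loop-helix factors, and Smad6 and Smad7, which encode feedback inhibitors of the pathway. In the intestine, BMP signalling is known to be strong near the villus or the surface and weak at the crypt base, where antagonists from the surrounding mesenchyme hold it back and stem cells are kept.

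The promoter sequences of 7 of the 10 genes were at hand (RefSeq, GRCm38.p6, 250 bases before to 50 after the transcription start), those of Bmp4, Bmp8b, Bmpr1a, Bmpr2, Smad6, Id2 and Id3. Bmp2, Id1 and Smad7 had no entry. The windows were searched on both strands for GTCTAGAC, the palindromic SMAD-binding element, and for GGCGCC, a GC-rich element described for BMP SMADs. The 2 elements are each their own reverse complement, and none of their matches overlapped. GTCTAGAC stood in 70 of the 32851 windows in the table (0.213%), and of the 7 genes in that of Smad6 alone, at -4 to 4 relative to the transcription start. GGCGCC stood in 3898 windows (11.9%), among them those of Bmpr1a (-198 to -193), Bmpr2 (-105 to -100) and Id2 (-231 to -226). The windows follow RefSeq starts, and those of Bmpr1a, Bmpr2, Id2 and Id3 lie inside the GENCODE gene spans given below. A match describes letters in the window and shows no binding. The sequences of Smad6, the member lowest in monolayers relative to tissue, and Bmp8b, the member highest in them, are given for the bases before their start, that of Smad6 with 4 bases beyond it, and that of Id2 for 30 bases around its match. Capitals mark the matched element, and Bmp8b has none. Smad6 was read on the minus strand of chr9:64022056-64022309, Bmp8b on the plus strand of chr4:123104911-123105160 and Id2 on the minus strand of chr12:25096306-25096335.
Smad6: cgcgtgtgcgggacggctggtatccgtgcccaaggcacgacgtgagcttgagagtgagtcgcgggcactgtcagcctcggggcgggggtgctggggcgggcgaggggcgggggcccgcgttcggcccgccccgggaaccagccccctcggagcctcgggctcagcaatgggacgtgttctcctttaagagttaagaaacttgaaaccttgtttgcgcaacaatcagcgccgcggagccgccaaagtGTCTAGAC
Bmp8b: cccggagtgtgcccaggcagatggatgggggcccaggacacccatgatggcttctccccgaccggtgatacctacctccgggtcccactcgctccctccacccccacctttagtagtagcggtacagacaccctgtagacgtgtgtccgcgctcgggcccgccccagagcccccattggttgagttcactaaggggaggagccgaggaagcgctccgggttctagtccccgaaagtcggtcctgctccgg
Id2: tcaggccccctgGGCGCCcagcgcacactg

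Libraries held 59016196 to 76216530 counts, and a gene at 0 may have had up to 3 counts, or 0.0394 to 0.0508 CPM (counts per 1000000), by counting error alone. Mitochondrial transcripts took a larger share of counts in tissue than in monolayers of either region, with 4.56% to 9.16% and 0.472% to 0.559% in SI and 2.25% to 2.59% and 0.704% to 0.750% in LI, and their part in the contrast of monolayers with tissue was not tested. The region labels matched Gata4, since this gene, a factor of the proximal intestine, averaged 11913 and 8858 normalized counts in SI tissue and SI monolayers and 149 and 198 in LI tissue and LI monolayers. All 8 epithelial markers were detected in every library. Normalized counts are the authors' counts divided by 1 size factor per library, and levels are given as these values for replicates 1, 2 and 3. Differences were tested on the raw counts with edgeR's quasi-likelihood test over 19581 genes. A gene is called higher or lower where the Benjamini-Hochberg adjusted p was under 0.05 and the log2 fold change at least 1 in size.

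In monolayers the inhibitory SMADs and 2 of the 3 Id genes fell in both regions, Bmp8b rose in both, and the receptors were not called in either. In SI monolayers, Bmp2 and Bmp8b were called higher than in SI tissue (2 of 10, against 9.71% of all tested genes) and Smad6, Smad7, Id1 and Id3 lower (4 of 10, against 16.4%). In LI monolayers, Bmp8b was called higher than in LI tissue (1 of 10, against 14.5%) and the same 4 genes lower (4 of 10, against 23.5%). The median log2 fold change of the 10 genes was -0.23 in SI and -0.27 in LI, where that of all tested genes was -0.05 in both. The libraries of tissue and monolayers did not overlap for 8 of the 10 genes in SI, where 66.4% of all tested genes were without overlap, and for 8 in LI, where 73.1% were. In these bulk samples, fewer cells of a type and less RNA per cell cannot be told apart. The tissue groups are 3 mice each and the monolayer groups 3 samples of pooled wells. The study lists its RNA sequencing among the experiments that were not repeated, and does not say whether the pooled samples came from separate cultures, so that their spread may be technical.

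**Figure D1:**
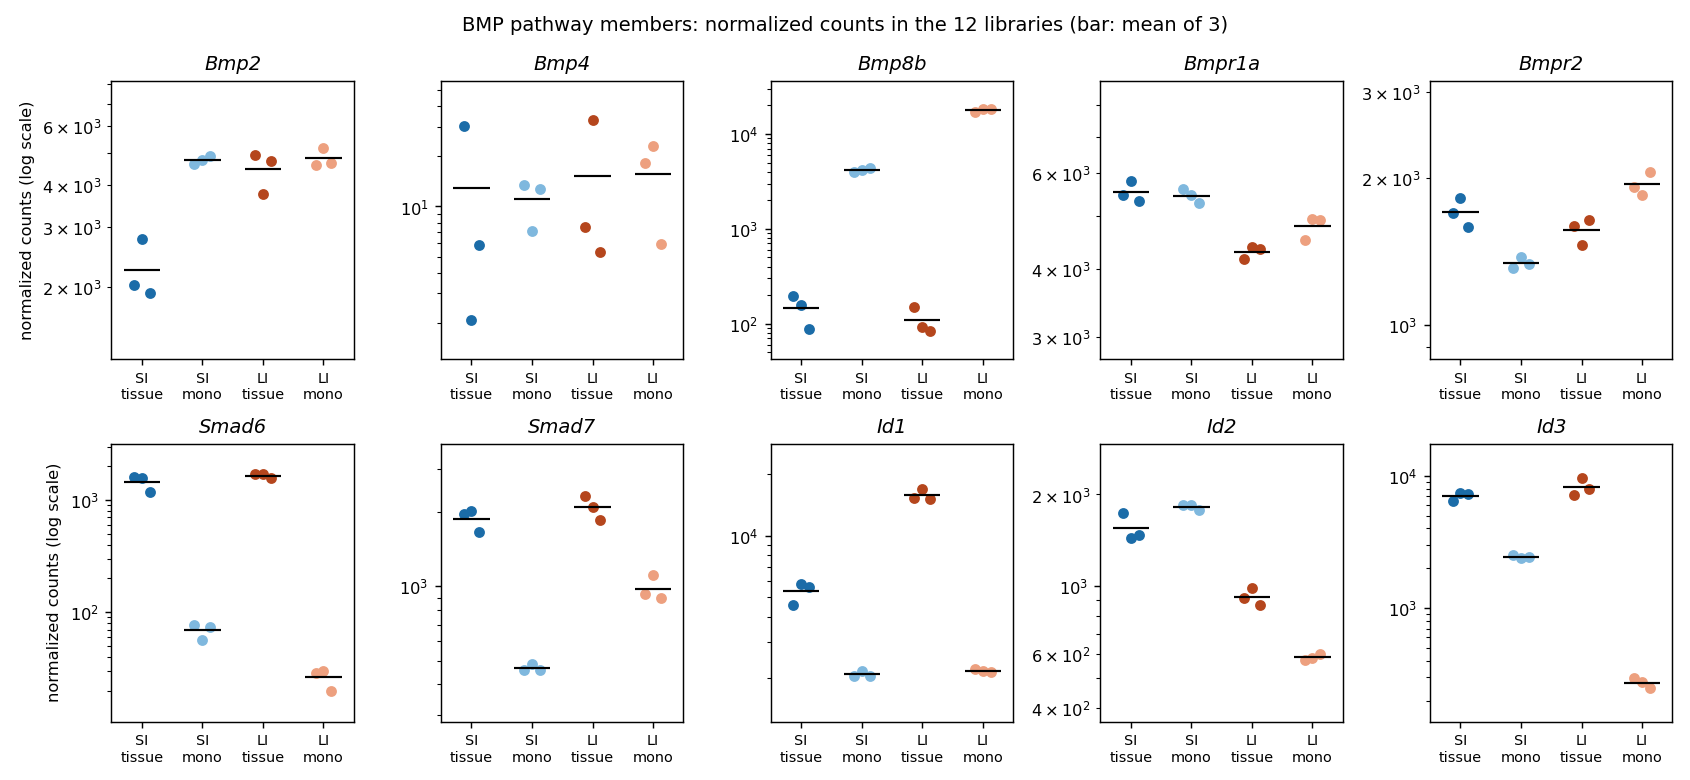
Normalized counts (log axis) of the 10 genes in the 12 libraries. Points are single libraries, 3 per group, and bars are group means. Smad6, Id1 and Id3 were lower in every monolayer library than in any tissue library of the same region, and Bmp8b was higher.

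Among the ligands, Bmp8b differed most between monolayers and tissue. The gene (chr4:123105165-123132099, GRCm38, plus strand) encodes a ligand best known from germ cells and brown fat. Its level was 194, 155 and 87.0 normalized counts in SI tissue, 150.4, 91.5 and 83.0 in LI tissue, 3994, 4196 and 4352 in SI monolayers, and 17208, 18306 and 18434 in LI monolayers. Every monolayer library was thus far above every tissue library, and LI monolayers stood above SI monolayers without overlap. Bmp8b rose 29.8-fold in SI (log2 fold change 4.90, SE 0.25, edgeR adjusted p = 1.04e-07) and 172-fold in LI (7.43, SE 0.27, adjusted p = 4.54e-09). Ordered by log2 fold change, this was the 107th highest of 19581 genes in SI and the 40th highest in LI. The libraries of SI and LI tissue overlapped, with a difference of 0.45 on the log2 scale (adjusted p = 0.222). In monolayers Bmp8b was 4.21-fold lower in SI than in LI (log2 fold change -2.08, SE 0.20, adjusted p = 1.73e-05), and the difference between the changes of the 2 regions was -2.53 (SE 0.35, adjusted p = 0.000275). Per length of exon, its level went from 0.557 ± 0.208 (SD, n = 3) to 16.0 ± 0.689 RPKM (normalized counts per kilobase, per 1000000 in total) in SI and from 0.415 ± 0.141 to 68.9 ± 2.58 in LI. Bmp8b has a close paralog, Bmp8a, and how reads common to both were assigned is not stated. It also shares 133 bases of exon with Ppie and 339 with Gm17244 on the opposite strand, and the sources used here do not say whether reads were counted by strand. Ppie averaged 1970 ± 172 and 3060 ± 103 normalized counts in SI tissue and monolayers and 2556 ± 16.5 and 4628 ± 171 in LI, and Gm17244 averaged 105 ± 15.6 at its highest, in LI monolayers.

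Bmp2 (chr2:133552159-133562885, plus strand), a ligand that intestinal epithelium itself makes, was high in all 4 groups. Its normalized counts were 2029, 2777 and 1921 in SI tissue, 4634, 4763 and 4877 in SI monolayers, 4909, 3769 and 4718 in LI tissue, and 4604, 5182 and 4669 in LI monolayers. SI tissue was the low group, below every other library, and the other 3 groups lay close together. Bmp2 rose 2.17-fold in SI monolayers (log2 fold change 1.12, SE 0.13, adjusted p = 1.46e-05) and differed by 0.16 in LI (SE 0.13, adjusted p = 0.304), where the libraries overlapped. Between the monolayers of the 2 regions the difference was 0.01 (adjusted p = 0.957). In tissue it was -0.95, SI minus LI (SE 0.13, adjusted p = 6.79e-05), just short of the fold limit. It passed that limit without SI tissue replicate 2 (-1.13), without LI tissue replicate 2 (-1.06) and without any 1 of the 6 monolayer libraries (-1.03). The difference between the changes of the regions was 0.97 (SE 0.18, adjusted p = 0.00111), and it likewise passed the limit without each of these 8 libraries (1.04 to 1.14).

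Bmp4 (chr14:46383520-46390669, minus strand), a ligand made mainly by mesenchymal cells in the gut, was low in every library. Its normalized counts were 30.6, 2.08 and 5.87 in SI tissue, 13.4, 7.12 and 12.8 in SI monolayers, 7.52, 33.0 and 5.36 in LI tissue, and 18.3, 23.0 and 5.93 in LI monolayers. One library of each tissue group was well above the other 2, and all groups overlapped. Monolayers differed from tissue by -0.14 on the log2 scale in SI (SE 0.88, adjusted p = 0.902) and by 0.08 in LI (SE 0.84, adjusted p = 0.942). Leaving out 1 library at a time moved these values between -0.65 and 1.47 in SI and between -0.35 and 1.31 in LI, and so across 0. Mean RPKM was at most 0.104 in any group. The summed level of 12 mesenchymal markers was 20.9 to 44.3 CPM in tissue and 23.3 to 33.9 in monolayers for SI, and 51.4 to 91.6 and 64.3 to 89.4 for LI, so that the sum overlapped between tissue and monolayers of either region. Single markers moved under that sum. In LI monolayers Vim, Pdgfra and Lum were called higher, 3 of 12 against 14.5% of all tested genes. Pdgfrb, Dcn, Myh11 and Des were called lower there, 4 of 12 against 23.5%. The values of Myh11 (676, 47.6 and 19.6 normalized counts) and Des (496, 36.6 and 16.1) in LI tissue were high mainly in replicate 1. Replicate 3 lay within the range of LI monolayers for both (13.5 to 27.7 and 9.88 to 23.0). In SI monolayers Pdgfrb and Dcn were called lower, 2 of 12 against 16.4%.

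**Figure D2:**
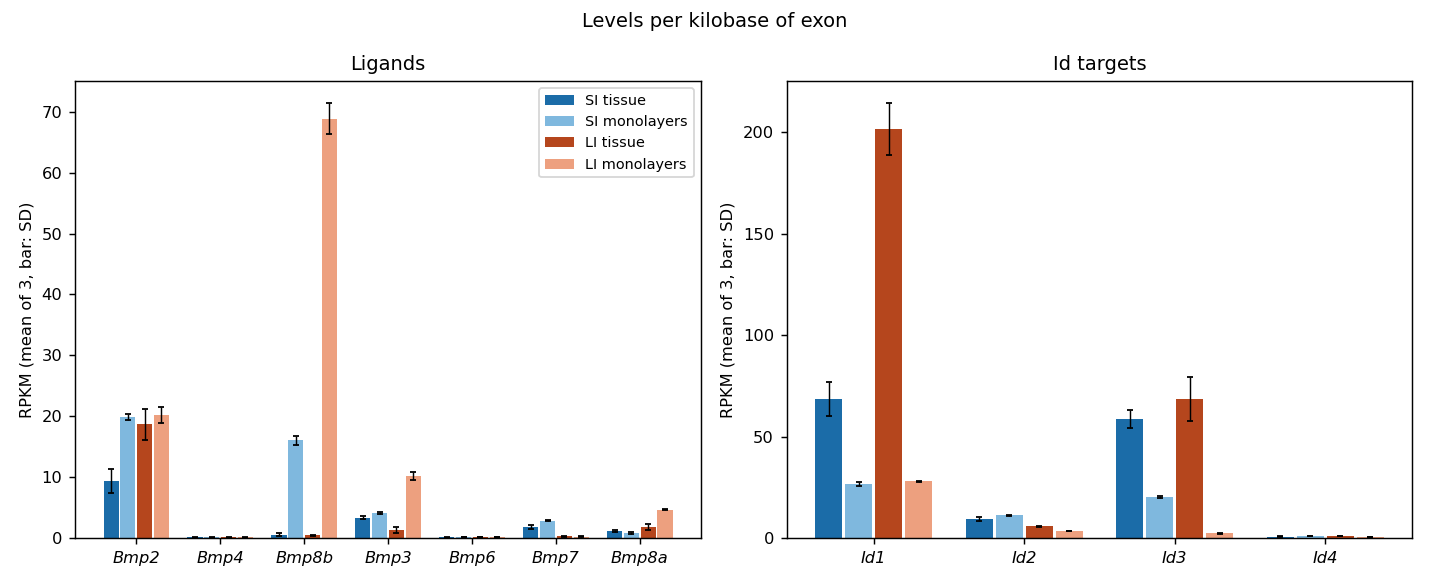
Level per length (RPKM, mean of 3 libraries, bar: SD) of 7 BMP ligands (left) and the 4 Id genes (right) in the 4 groups. Bmp8b in LI monolayers reached 68.9, above Bmp2 at 20.2, and Id1 in LI tissue reached 202.

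On the same length scale, the ligand with the highest level was Bmp2 in both tissues (9.38 ± 1.95 RPKM in SI, 18.7 ± 2.55 in LI) and in SI monolayers (19.9 ± 0.508), where Bmp8b was at 16.0 ± 0.689. In LI monolayers the order was the other way round, with Bmp8b at 68.9 ± 2.58 and Bmp2 at 20.2 ± 1.33. In SI monolayers and in LI monolayers the libraries of these 2 genes did not overlap on this scale. That spread leaves out any error in the exon lengths used (3555 bases for Bmp2 and 3880 for Bmp8b) or in read assignment. The order of the 2 genes was not tested.

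Neither receptor gene was called in any of the 5 comparisons. Bmpr1a (chr14:34410734-34503341, minus strand) encodes a type I receptor that binds BMP2 and BMP4, and had 5459, 5805 and 5321 normalized counts in SI tissue, 5615, 5459 and 5287 in SI monolayers, 4170, 4397 and 4352 in LI tissue, and 4513, 4934 and 4922 in LI monolayers. SI and LI did not overlap, and within SI tissue and monolayers did. The log2 fold change was 0.02 in SI (adjusted p = 0.824) and 0.20 in LI (SE 0.05, adjusted p = 0.00301), and SI exceeded LI by 0.40 in tissue (adjusted p = 7.11e-06) and 0.22 in monolayers (adjusted p = 0.00231). Bmpr2 (chr1:59763400-59879014, plus strand), the type II receptor for BMPs, had 1693, 1824 and 1588 normalized counts in SI tissue, 1307, 1378 and 1334 in SI monolayers, 1594, 1455 and 1643 in LI tissue, and 1917, 1849 and 2059 in LI monolayers. SI monolayers were the lowest libraries and LI monolayers the highest, with both tissues between them. Its change in monolayers, on the log2 scale, was of opposite sign in SI (-0.31, SE 0.07, adjusted p = 0.00143) and LI (0.36, SE 0.07, adjusted p = 0.000312), and the difference between them was -0.67 (SE 0.10, adjusted p = 5.41e-05). None of these values reached the fold limit. Bmpr1a shares 290 bases of exon with the antisense gene Gm17110, which averaged at most 8.43 ± 7.15 normalized counts in any group.

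Both inhibitory SMADs fell in monolayers of both regions, Smad6 far more than Smad7. Smad6 (chr9:63953076-64022059, minus strand), whose product blocks signalling by BMP type I receptors, had 1609, 1578 and 1186 normalized counts in SI tissue and 1698, 1694 and 1568 in LI tissue. In SI monolayers it had 76.8, 56.1 and 73.9, and in LI monolayers 28.9, 29.8 and 19.8. Tissue of the 2 regions overlapped, no monolayer library came near them, and LI monolayers were below SI monolayers. Smad6 fell 20.6-fold in SI (log2 fold change -4.37, SE 0.15, adjusted p = 1.27e-12) and 61.2-fold in LI (-5.94, SE 0.17, adjusted p = 6.28e-14), the 471st and 352nd lowest log2 fold change of 19581 genes. The difference between SI and LI was -0.14 in tissue (adjusted p = 0.345) and 1.43 in monolayers (SE 0.21, adjusted p = 2.17e-05), and the changes of the 2 regions differed by 1.57 (SE 0.24, adjusted p = 5.65e-05). This is the gene whose promoter window holds the GTCTAGAC element printed above, and any part of that element in these values was not tested.

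Smad7 (chromosome 18, 75367529 to 75395935, plus strand), whose product blocks signalling by both BMP and TGF-beta receptors, had 1972, 2025 and 1656 normalized counts in SI tissue, 459.8, 486 and 459.6 in SI monolayers, 2331, 2098 and 1857 in LI tissue, and 933, 1110 and 894 in LI monolayers. Here SI monolayers were the lowest group, and LI monolayers lay between them and tissue. Smad7 fell 3.92-fold in SI (log2 fold change -1.97, SE 0.10, adjusted p = 1.38e-10) and 2.07-fold in LI (-1.05, SE 0.10, adjusted p = 8.12e-08). Without LI tissue replicate 1 the change in LI was -0.98 and missed the fold limit. SI and LI tissue overlapped (-0.11, adjusted p = 0.356), and in monolayers Smad7 was lower in SI (-1.03, SE 0.10, adjusted p = 3.77e-07). That call was lost without SI monolayers replicate 1 or 3 (-0.99 each) and without LI monolayers replicate 2 (-0.91). The changes of the regions differed by -0.92 (SE 0.14, adjusted p = 6.06e-05), short of the fold limit with all libraries and just past it without SI tissue replicate 3 (-1.001). In monolayers the order of the regions was thus opposite for the 2 inhibitory SMADs, Smad6 being higher in SI and Smad7 in LI.

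The 3 Id genes each had a pattern of their own over the 4 groups. Id1 (chr2:152736251-152737410, plus strand) had 4593, 5804 and 5607 normalized counts in SI tissue, 15220, 16897 and 15121 in LI tissue, 2056, 2182 and 2043 in SI monolayers, and 2208, 2162 and 2144 in LI monolayers. The tissues of the 2 regions stood well apart, and the monolayers of both overlapped at a lower level. Id1 fell 2.49-fold in SI (log2 fold change -1.32, SE 0.08, adjusted p = 4.44e-10) and 7.02-fold in LI (-2.81, SE 0.08, adjusted p = 4.07e-14), a difference between the changes of 1.497 (SE 0.11, adjusted p = 1.62e-08). It was 2.87-fold lower in SI tissue than in LI tissue (-1.52, SE 0.08, adjusted p = 9.19e-11), whereas the monolayers differed by -0.02 (SE 0.08, adjusted p = 0.823).

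Id3 (chr4:136143497-136145755, plus strand) had the opposite arrangement. Its normalized counts were 6444, 7413 and 7320 in SI tissue and 7157, 9712 and 7967 in LI tissue, and 2501, 2407 and 2422 in SI monolayers and 297, 274 and 249 in LI monolayers. Here the tissues overlapped and the monolayers stood far apart. Id3 fell 2.82-fold in SI (log2 fold change -1.496, SE 0.10, adjusted p = 1.21e-08) and 29.3-fold in LI (-4.87, SE 0.12, adjusted p = 1.64e-13, the 565th lowest of 19581), and these changes differed by 3.38 (SE 0.15, adjusted p = 6.84e-10). SI exceeded LI 9.11-fold in monolayers (3.19, SE 0.11, adjusted p = 2.77e-11) and differed from it by -0.19 in tissue (adjusted p = 0.115).

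Id2 (chr12:25093799-25097140, minus strand) was not called in monolayers of either region. It had 1745, 1441 and 1468 normalized counts in SI tissue, 1845, 1843 and 1785 in SI monolayers, 915, 986 and 870 in LI tissue, and 572, 583 and 600 in LI monolayers. Every SI library was above every LI library, and the groups did not overlap. Monolayers differed from tissue by 0.27 on the log2 scale in SI (SE 0.08, adjusted p = 0.00818) and by -0.61 in LI (SE 0.08, adjusted p = 5.61e-06). SI exceeded LI by 0.79 in tissue (SE 0.08, adjusted p = 4.81e-07) and by 1.67 in monolayers (3.18-fold, SE 0.08, adjusted p = 9.76e-11). The difference between the changes was 0.88 (SE 0.11, adjusted p = 1.17e-05), which passed the fold limit without SI monolayers replicate 3 (1.005) or LI monolayers replicate 3 (1.01). On the length scale, Id1 was the highest of the 3 in LI tissue (202 ± 12.8 RPKM, against 68.7 ± 10.8 for Id3 and 5.63 ± 0.355 for Id2), and in LI monolayers Id1 was at 27.8 ± 0.423, Id2 at 3.57 ± 0.0859 and Id3 at 2.27 ± 0.197.

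**Figure D3:**
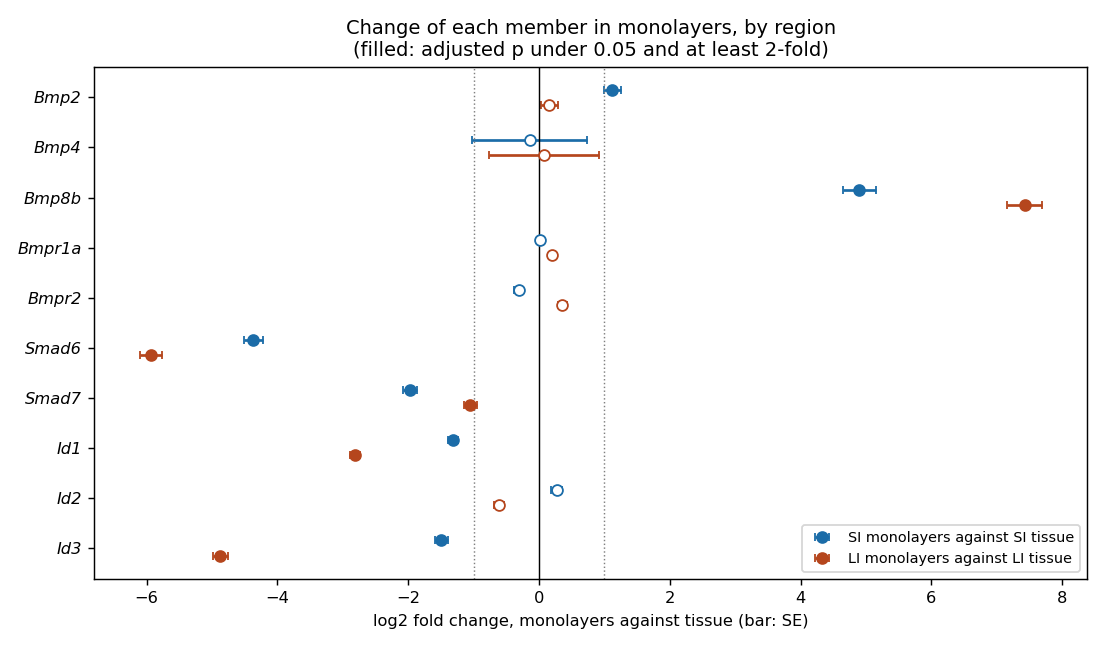
Log2 fold change of monolayers against tissue (x axis, bar: SE from edgeR) for the 10 genes in SI (blue) and LI (red), with filled points for called genes. Smad6, Id1 and Id3 lie farther left in LI than in SI and Bmp8b farther right, whereas Smad7 lies farther left in SI.

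Between the regions, Id1 was the member called lower in SI tissue than in LI tissue (1 of 10, against 11.1% of all tested genes), and none was called higher (against 11.6%). In monolayers Smad6, Id2 and Id3 were called higher in SI (3 of 10, against 12.4%) and Bmp8b and Smad7 lower (2 of 10, against 8.88%). The median log2 fold change, SI against LI, was -0.13 in tissue and -0.01 in monolayers, beside 0.06 and 0.02 over all tested genes. The change in monolayers differed by region, as the interaction of region and preparation, for Smad6, Id1 and Id3, whose value was higher in SI than in LI (3 of 10, against 11.4%), and for Bmp8b, whose value was lower (1 of 10, against 8.51%). For each of these 4 genes the direction was the same in both regions and the change was larger in LI. The 5 comparisons share libraries, so their values are not independent of each other.

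Markers of other cell types moved with preparation. Of all tested genes, 9.71% were called higher and 16.4% lower in SI monolayers, and 14.5% and 23.5% in LI monolayers. Between the tissues, 11.6% were called higher in SI and 11.1% lower. The summed level of 12 immune markers ranged for SI from 657 to 1638 CPM in tissue and from 155 to 164 in monolayers. For LI it ranged from 1268 to 1821 and from 9.54 to 12.3. Of the 12, 10 were called lower in SI monolayers and 11 in LI monolayers. In both tissues and in SI monolayers the sum is mostly Cd74, with a mean of 46107 raw counts in SI tissue and 103133 in LI tissue. Ptprc had 3646 and 1144. In SI monolayers Cd74 averaged 7466 raw counts, Lyz2 2941 and Ptprc 173, so the sum there says little about Ptprc. Between the tissues, 7 of the 12 were called higher in SI and 1 lower. The 10 endothelial markers summed to 8.57 to 9.29 CPM in tissue and 4.54 to 5.51 in monolayers for SI, and to 8.20 to 9.34 and 5.22 to 6.71 for LI. Of the 9 tested, 6 were called lower in SI monolayers, where Cdh5 and Emcn were at 0 in all libraries. In LI monolayers 3 were called lower (Vwf, Esam and Plvap) and 2 higher (Cdh5, from 11.7 ± 8.61 to 40.4 ± 12.96 normalized counts, and Kdr, from 5.56 ± 4.88 to 35.2 ± 12.7). Within the epithelium, the 8 enterocyte markers summed to 9202 to 13319 CPM in SI tissue and 3507 to 3755 in SI monolayers, and the 6 markers of the large intestine surface in LI to 4705 to 6440 in tissue and 528 to 546 in monolayers, where all 6 were called lower. Of the 6 crypt stem cell markers, 2 were called lower in SI monolayers and 4 in LI monolayers. Their sum was 1195 to 1659 CPM in tissue and 156 to 172 in monolayers for SI, and 119 to 135 and 20.1 to 29.5 for LI. In SI tissue this sum is mostly Olfm4, which fell from 84066 ± 11554 to 1209 ± 101 normalized counts. Axin2 fell there from 4326 ± 367 to 1868 ± 58.9, and these were the 2 called. Smoc2 (6237 ± 813 to 3602 ± 178) and Ascl2 (683 ± 89.4 to 395 ± 23.8) were lower there but short of the fold limit. In SI tissue and monolayers, Lgr5 was at 661 ± 136 and 702 ± 49.2 and Sox9 at 1738 ± 80.3 and 2818 ± 152. In LI the 4 called were Lgr5 (mean 289 to 25.7), Ascl2 (578 to 7.89), Smoc2 (2792 to 131) and Axin2 (2166 to 119). Sox9 (2430 to 1322) and Olfm4 (156 to 151) were not called there. The interaction was called higher for 5 of the 6 (against 11.4% of all tested genes) and lower for 1 (against 8.51%). Of the 8 epithelial markers, 4 were called higher and 0 lower in SI monolayers, and 3 higher and 1 lower in LI monolayers. Their sum was 13564 to 14633 CPM in tissue and 28317 to 28908 in monolayers for SI, and 23408 to 24366 and 35317 to 35973 for LI, and is mostly keratins. Cdh1, Krt18 and Krt19 were called higher in both regions and Krt8 in SI. Krt20, a keratin of differentiated cells, fell in LI from 98559 ± 15044 to 23753 ± 1044 normalized counts and was at 77781 ± 8676 and 50226 ± 868.2 in SI (log2 fold change -0.60), where Epcam and Vil1 were also lower in monolayers, by -0.31 and -0.83, short of the fold limit. Epcam was lower in LI monolayers too, at 130576 ± 3809 normalized counts in tissue and 93862 ± 1405 in monolayers, and was not called. The part of these shifts in cell makeup in the values of the BMP genes was not tested.

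Beyond the 10 genes, 45 further genes of the pathway were counted, of which 34 passed the filter. In SI monolayers 2 were called higher than in SI tissue (against 9.71% of all tested genes) and 3 lower (against 16.4%), and in LI monolayers 12 higher (against 14.5%) and 7 lower (against 23.5%). As shares of the 34 these were 5.88% and 8.82% in SI, both below that background, and 35.3% and 20.6% in LI, above it and slightly below it. Without SI tissue replicate 2 the count in SI was 8 in place of 5. The median log2 fold change of the 34 was -0.28 in SI and 0.40 in LI, beside -0.05 over all tested genes in both. Between regions, SI tissue was called higher than LI tissue for 3 genes (against 11.6%) and lower for 4 (against 11.1%), SI monolayers were higher than LI monolayers for 2 (against 12.4%) and lower for 8 (against 8.88%), and the interaction was called higher for 4 (against 11.4%) and lower for 11 (against 8.51%). As shares of the 34, in the same order, these were 8.82% and 11.8%, 5.88% and 23.5%, and 11.8% and 32.4%. The counts by class that follow stand beside the same background shares.

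The secreted antagonists bind BMP ligands outside the cell. Of 8 counted, 2 were called higher and 1 lower in SI monolayers, and 5 higher and 1 lower in LI monolayers. Nbl1, an antagonist of the DAN family, rose from 1281 ± 131 to 5124 ± 203 normalized counts in SI (log2 fold change 2.04, SE 0.16, adjusted p = 1.37e-06) and from 433 ± 122 to 11467 ± 10.9 in LI (4.77, SE 0.18, adjusted p = 1.87e-09). Fst, encoding follistatin, which binds activins and some BMPs, rose from 16.5 ± 14.9 to 360 ± 28.2 in SI (4.53, SE 0.46, adjusted p = 1.35e-06) and from 8.24 ± 4.76 to 190 ± 49.1 in LI (4.55, SE 0.49, adjusted p = 1.71e-06). Fstl1, a follistatin-like glycoprotein, fell in SI (135 ± 48.8 to 54.6 ± 6.12, -1.27, adjusted p = 0.00167) and rose in LI (114 ± 43.0 to 403 ± 70.6, 1.87, adjusted p = 1.98e-05). Also called in LI monolayers were Bmper and Grem1, which rose, and Chrd, which fell. These 3 were low, with at most 200 normalized counts on average in any group, and Grem1 had no count in any SI monolayer library, so that no fold is given for it there. The mesenchymal markers Vim (1018 ± 160 to 2234 ± 129 normalized counts), Pdgfra (29.2 ± 19.4 to 260 ± 47.9) and Lum (31.1 ± 13.1 to 113 ± 30.1) rose in LI monolayers with Bmper, Grem1 and Fstl1, and Dcn (719 ± 92.5 to 196 ± 32.2) and Pdgfrb (351 ± 23.7 to 96.9 ± 6.65) fell. Their part in the antagonist values was not tested.

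Among 5 other ligands tested, none was called in SI monolayers and 2 were called higher in LI monolayers. Bmp3, a ligand that opposes other BMPs, was at 1651 ± 129 normalized counts in SI tissue and 2040 ± 98.4 in SI monolayers (log2 fold change 0.34, adjusted p = 0.183) and rose in LI from 653 ± 247 to 5041 ± 311 (2.996, SE 0.22, adjusted p = 7.39e-07). Bmp8a, the paralog of Bmp8b, was at 182 ± 24.9 and 135 ± 25.9 in SI (-0.41, adjusted p = 0.0882) and rose in LI from 288 ± 80.6 to 749 ± 18.3 (1.43, SE 0.18, adjusted p = 3.38e-06), so that in SI its value was below 0 where that of Bmp8b was 4.90. Bmp7 was higher in SI, with 482 ± 69.7 and 759 ± 26.0 in SI tissue and monolayers against 63.3 ± 41.1 and 57.5 ± 10.9 in LI. The difference was 2.97 in tissue (SE 0.39, adjusted p = 6.82e-05) and 3.76 in monolayers (SE 0.40, adjusted p = 1.44e-05).

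Of 8 other receptors and co-receptors tested, 1 was called lower in SI monolayers (Eng), and 3 higher (Acvr1, Bmpr1b and Eng) and 3 lower (Acvrl1, Rgma and Rgmb) in LI monolayers. Eng is a co-receptor known from endothelium, and the endothelial markers did not all move with it. In LI monolayers Cdh5 and Kdr were called higher, and Vwf, Esam and Plvap lower. In SI monolayers 6 of the 9 tested were called lower and 0 higher. The part of endothelial cells in the values of Eng was not tested. Acvr1, a type I receptor for BMPs, rose in LI from 873 ± 33.0 to 2044 ± 179 normalized counts (log2 fold change 1.27, SE 0.08, adjusted p = 3.24e-10) and differed by 0.17 in SI (adjusted p = 0.0659). Rgmb, a BMP co-receptor, fell in LI from 2627 ± 51.9 to 1149 ± 70.7 (-1.15, SE 0.09, adjusted p = 4.87e-09), and in SI its change of -0.77 (adjusted p = 1e-06) was short of the fold limit. Acvr2a, a type II receptor shared by BMPs and activins, changed by -0.23 in SI and 0.81 in LI, and its interaction was called (-1.04, SE 0.10, adjusted p = 7.5e-07).

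Of the SMADs that carry the signal, Smad1, Smad5 and Smad4 were called in none of the 5 comparisons. In LI, Smad4 had a log2 fold change of 0.03 (SE 0.06, adjusted p = 0.71) and Smad1 of -0.63 (SE 0.06, adjusted p = 1.88e-07), and in SI the 3 lay between -0.45 and -0.31. Smad9 was called lower in both regions, but at a low level (20.6 ± 3.83 to 5.51 ± 3.131 normalized counts in SI, -1.85, adjusted p = 0.00947, and 29.9 ± 4.12 to 5.64 ± 3.60 in LI, -2.36, adjusted p = 0.00138). Of 6 other inhibitors, none was called in SI monolayers and 3 were in LI monolayers. Smurf1, a ubiquitin ligase of SMADs and their receptors, rose there (1.59, SE 0.08, adjusted p = 1.6e-11), as did Ski, a SMAD co-repressor (1.1995, SE 0.06, adjusted p = 2.27e-11), whereas Bambi, a pseudoreceptor, fell (-1.26, SE 0.36, adjusted p = 0.00797).

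Of 3 other targets tested, none was called in SI monolayers and 1 was called lower in LI monolayers. This was Atoh8, a helix-loop-helix factor induced by BMP in several tissues, which fell from 219 ± 16.4 to 21.8 ± 5.42 normalized counts in LI (log2 fold change -3.29, SE 0.26, adjusted p = 1.13e-08) and was at 93.2 ± 25.3 and 46.0 ± 2.12 in SI (-0.98, SE 0.24, adjusted p = 0.00256). Like Id1, it was lower in SI tissue than in LI tissue (-1.20, SE 0.23, adjusted p = 0.000363). Id4, the fourth Id gene, was at 161 ± 24.8 and 259 ± 7.47 in SI (0.72, adjusted p = 0.00159) and 229 ± 37.9 and 139 ± 13.6 in LI (-0.67, adjusted p = 0.00224), and its interaction was called (1.39, SE 0.24, adjusted p = 0.000177).

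**Figure D4:**
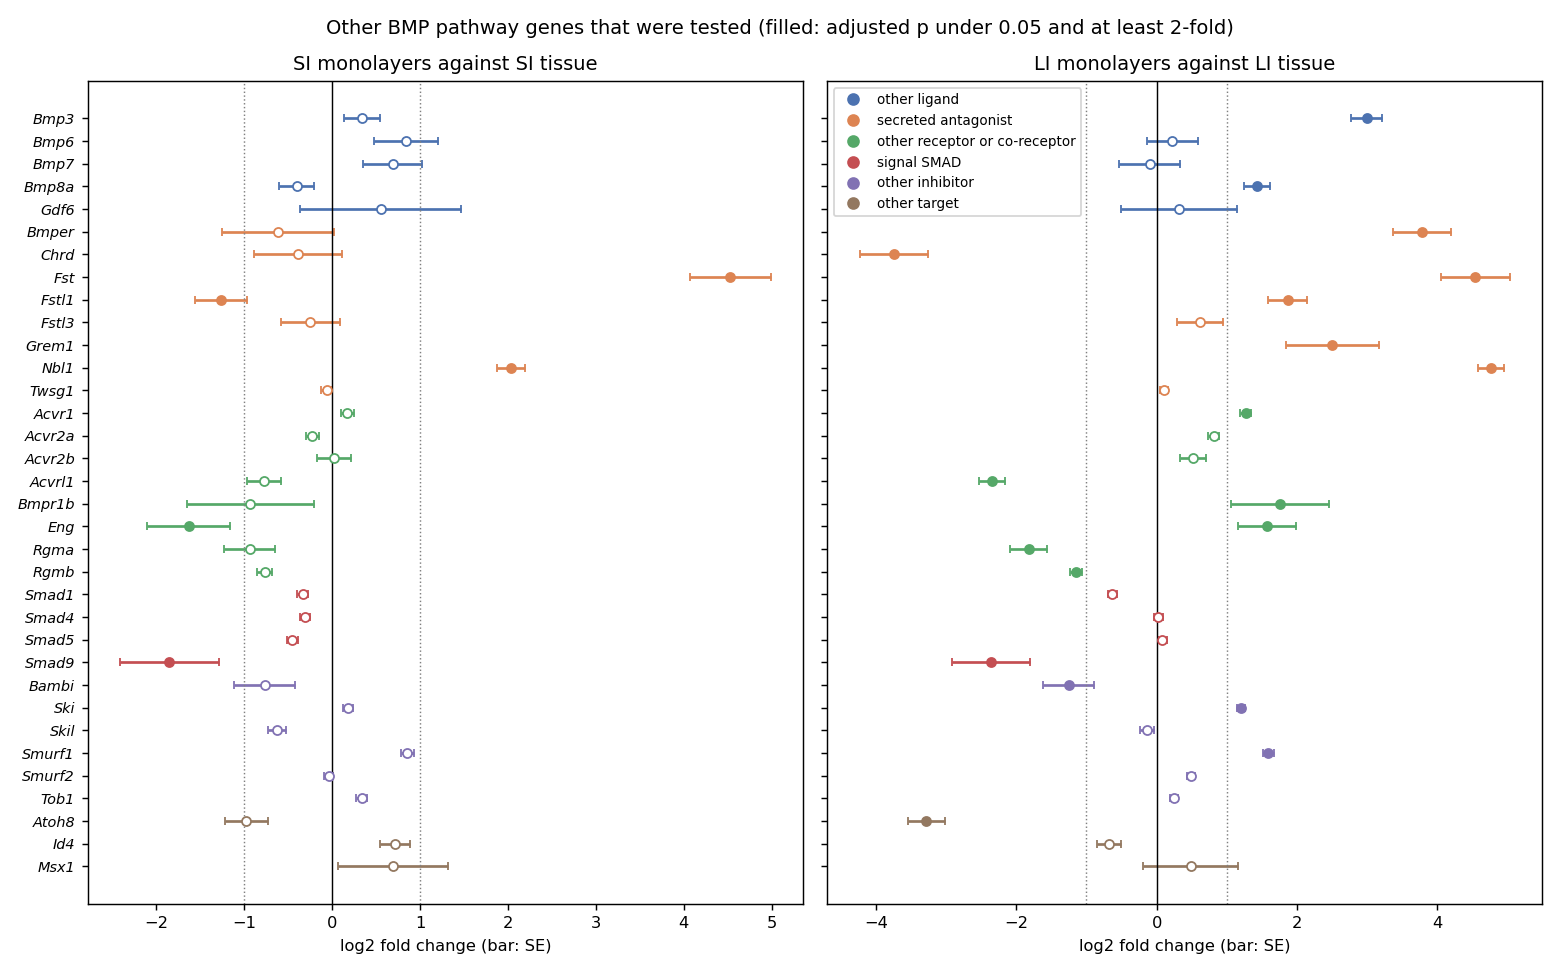
Log2 fold change of monolayers against tissue (bar: SE from edgeR) for the 34 other pathway genes counted, in SI (left) and LI (right), coloured by class, with filled points for called genes and a separate x range in each panel. Grem1 is not drawn for SI, where it had no count in monolayers. More points are filled in LI (19) than in SI (5), and Fst and Nbl1 are called higher in both.

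The genes whose log2 CPM followed each Id gene most closely over the 12 libraries were looked up among 9212 genes with a mean of at least 10 CPM. For Id1 these were Fuca1 (Pearson's r = 0.9956), Kdelr3 (0.9950) and Aspg (0.9944). For Id2 they were Cyp2j6 (0.9976), Tmem144 (0.9947) and Tmem41b (0.9928). For Id3 they were Dhrs7 (0.9959), Rnf186 (0.9955) and Ifitm2 (0.9952). The 12 libraries form 4 groups, so these values mainly compare group levels, and they are descriptions with no test. None of the 9 genes appeared for more than 1 Id gene.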

How the data were processed

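RNA sequencing of 12 libraries was analysed, 3 in each of 4 groups, which were assigned from the labels. The authors deposited whole-number counts per gene, made with STAR 2.7.9a (alignment to GRCm38) and featureCounts 2.0.2 (GENCODE genes) from HiSeq read pairs, with versions as in the submitters' processing notes. The authors also deposited a normalized signal on the linear scale, in which a single DESeq2 size factor (0.850 to 1.12) divides all counts of a library. Strand and the counting of mates are not given in the sources used here, and 73.4% to 77.4% of counts from 1 to 20 were even. If both mates were counted, counting limits are higher than stated. Every column was mapped to a library. Symbols, exon lengths and positions came from a GENCODE annotation of GRCm38, which named 55141 of 55487 genes.

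Counts were tested with edgeR 4.0.16 (filterByExpr, TMM, robust quasi-likelihood fit, 1 model of 4 group means, R 4.3.3) over 19581 genes in 5 comparisons, after a check on simulated data. The median biological coefficient of variation was 0.127. Replicates differed by 2.27 to 3.02 times the counting noise in tissue and by 1.49 to 1.91 times in monolayers, so none was a copy of another. Each library counted as its own replicate, although this spread cannot tell technical from biological replicates. SE is the log2 fold change over the square root of F. RPKM is the normalized count per kilobase of exon and per 1000000 of the mean normalized total. Alternatives were DESeq2 1.42.0, upper quartile scaling, no filter, a minimum of 10 counts in each library, calls without a fold limit, counts divided by 2, 2 groups only, a replicate block and each library left out. The text names all 10 members, the pathway genes called in any comparison (values for at most 3 per class, by mean CPM) and 3 similar genes per Id gene. Smad1, Smad4 and Gata4 were named after their values were seen. Results for 2 listed genes are not reported here. The members, lists and tests were chosen with earlier results of these data known.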

Additional observations from a re-analysis of the deposited data

Results flagged for a closer look

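The change from tissue to monolayers differed between the regions, by the interaction term in edgeR, for 4 of the 10 genes. The term was called above 0 for 3 (against 11.4% of all tested genes) and below 0 for 1 (against 8.51%). Given as SI minus LI on the log2 scale, it was -2.53 for Bmp8b, 1.57 for Smad6, 1.497 for Id1 and 3.38 for Id3. Each of the 4 changed in the same direction in both regions and more in LI.

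Among the 34 other pathway genes tested, the same term was called for 15, with 11.8% above 0 and 32.4% below 0. Over all tested genes these shares were 11.4% and 8.51%. It was above 0 for Chrd (3.36), Atoh8 (2.31), Acvrl1 (1.57) and Id4 (1.39). It was below 0 for Bmper (-4.40), Eng (-3.20), Fstl1 (-3.13), Nbl1 (-2.73), Bmpr1b (-2.69), Bmp3 (-2.66), Bmp8a (-1.83), Acvr1 (-1.10), Acvr2a (-1.04) and Ski (-1.02). For Grem1 the fitted value was -6.17, which depends on the prior count, since Grem1 had no count in any SI monolayer library. Fstl1 and Eng were called lower in SI monolayers and higher in LI monolayers than in tissue. All groups had 3 libraries, too few to test single libraries as outliers.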

How the results depend on the processing

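Of 984 values of the 10 genes under the alternatives, 943 kept their side of the threshold, 37 newly passed it and 4 no longer passed it. With a call in either fit, 0 changed sign. The 943 include uncalled values whose sign changed, as for Bmp4. The 37 include values called only because 1 alternative had no fold limit. The 4 lost calls were those of Smad7 without LI tissue replicate 1 (-0.98, LI monolayers against LI tissue) and, between the monolayers, without SI monolayers replicate 1 (-0.99), SI monolayers replicate 3 (-0.99) or LI monolayers replicate 2 (-0.91). The number of the 10 genes called between SI and LI tissue was 1, and it was 2 with upper quartile scaling, without a filter on low counts and with only the 2 groups compared, in each case through Bmp2 (-1.03, -1.01 and -1.02), and 1 to 2 with each library left out. With no minimum fold change it was 4, with 8 in place of 5 for LI monolayers against LI tissue and 8 in place of 4 for the interaction, and the pathway list counted 18 in place of 5 in SI, 16 in place of 7 between tissues and 25 in place of 10 between monolayers. With at least 10 counts in every library, where fewer genes were tested, the pathway list counted 12 in place of 19 in LI. With each library left out, it counted 5 to 8 in SI, 8 to 12 between monolayers and 11 to 16 for the interaction. Where a group was left with 2 libraries, the spread was pooled over all groups. Upper quartile scaling moved the median of all genes in LI from -0.05 to -0.17 and no direction of a called member.

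Same-numbered libraries did not deviate together (r of their deviations -0.195 to 0.052, 18 of 18 at or below 0.1), so the numbers were not taken as pairs. Mice shared between groups under other numbers would not show in this check. With a replicate block, 6, 5, 1, 5 and 4 of the 10 genes were called in the 5 comparisons and 5, 19, 7, 10 and 15 of the pathway list, the same counts as without it.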
